A study of Mus musculus with 4 samples.

Results

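Transcription factor genes of the ureteric bud and of the collecting duct that it forms were followed in mouse kidney ureteric buds given angiotensin II (AngII, the hormone made by renin and angiotensin-converting enzyme, 1e-05 M) for 6 h, against buds in media alone for 6 h. They were chosen by symbol, as Pax2, Gata2, Gata3, Emx2 and Lhx1, called early bud factors here, and Elf3, Elf5, Ehf and Tfcp2l1, called late collecting duct factors. All 9 were found among the 17305 genes named on the array, on 15 of its 41174 probes. Both groups were intact buds embedded in a matrix gel, in medium holding HGF at 100 ng/ml, GDNF at 100 ng/ml and 10% FBS. The strain, age and genotype are not used here. The labels number 2 pairs of AngII and media RNA and call them biological, but name no animal or culture for either. Each pair was hybridised on 2 arrays, with Cy5 and Cy3 exchanged between them, giving 4 arrays on 1 slide.

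The ureteric bud grows out of the nephric duct and branches under GDNF, and its stalks later become collecting ducts. Pax2, a paired-box factor, Lhx1, a LIM homeodomain factor, and Gata3, a zinc finger factor, are needed for the mouse nephric duct and for its budding, and Emx2, a homeodomain factor, for the bud to function once it has formed. Gata2, a relative of Gata3, shapes the mouse urogenital tract and is also active in the adult collecting duct, where it acts on the water channel gene Aqp2. Elf3, Elf5 and Ehf form the epithelium-specific branch of the ETS family, which binds DNA at a GGAA core, and Elf5 marks principal cells, the water- and sodium-handling cells of the duct. Tfcp2l1, of the CP2 family, is needed for principal and intercalated cells to mature.

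The starts of 4 of these genes are shown because they carry the highest late factor (Elf5), the highest early factor (Gata2), the member of lowest ratio (Pax2) and the ETS relative whose ratio was small (Elf3). Each is the 150 bases before the outermost RefSeq start of the gene, 5′ to 3′ along the gene, on build GRCm38.p6. Capitals mark GGAAG on either strand, a longer form of the GGAA core. GGAA before other bases, as in the Elf3 stretch, was left in small letters.
Elf5, chr2:103411948-103412097, plus strand: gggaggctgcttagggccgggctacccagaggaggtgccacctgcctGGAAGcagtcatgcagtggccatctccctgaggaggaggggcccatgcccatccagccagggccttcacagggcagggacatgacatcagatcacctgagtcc
Gata2, chr6:88193741-88193890, plus strand: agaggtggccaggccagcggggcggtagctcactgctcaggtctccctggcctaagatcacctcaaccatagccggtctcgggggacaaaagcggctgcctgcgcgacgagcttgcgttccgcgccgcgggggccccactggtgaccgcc
Pax2, chr19:44746451-44746600, plus strand: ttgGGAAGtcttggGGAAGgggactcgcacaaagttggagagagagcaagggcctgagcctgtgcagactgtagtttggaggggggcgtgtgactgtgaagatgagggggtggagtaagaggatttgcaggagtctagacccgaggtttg
Elf3, chr1:135258473-135258622, minus strand: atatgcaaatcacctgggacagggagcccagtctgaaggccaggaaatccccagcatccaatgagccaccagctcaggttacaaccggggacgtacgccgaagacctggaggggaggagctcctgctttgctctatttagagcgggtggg

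Of the 9 members 8 had RefSeq start windows, 12 in all. Within 250 bases before the start, GGAAG on either strand was in 5 of the 12 windows, against 64.1% of 32851 mouse start windows. The shorter core GGAA was not counted. Elf5 had 1 match in the window shown, and none in the window of its other start. Pax2 had 2 matches in its first window and none in its other 2 windows. The GATA motifs AGATAA and AGATAG, and with T in the first place TGATAA and TGATAG, were searched on both strands and were in 1 of the 12 windows, that of Elf5 shown above though outside the printed stretch, against 26.5% of all windows. These letter matches are a description and do not show that a factor binds.

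Ratios are log2 values of AngII over media, with positive values higher under AngII. In limma, 11588 of 14995 features tested (77.3%) passed at a Benjamini-Hochberg adjusted p under 0.05, 39.1% higher and 38.1% lower, so most features passed this threshold. The numbered replicates differed by no more than the array noise, with an SD over features of 0.04 for the half-difference between them and of 0.04 for the contrast that holds array noise alone (ratio 1.02), and 0 features differed between them in limma at an adjusted p under 0.05, against 771 at an unadjusted p under 0.05. They were therefore read as 1 pair of RNA samples, although the main fit took the 2 numbers as 2 observations. A fit to the 4 arrays with the replicate number as a block, which leaves the dye effect in the residual, is given as the replicate block, and in it 4 of the 9 members passed, against 31% of all features. The adjusted p-values measure the spread between hybridisations of that pair, not between animals or cultures. The limma SE is drawn largely towards a value shared by all features, at 0.034 to 0.039 for the 9 members. It is taken after the dye effect is averaged out, so it is not a gene's own spread over the 4 arrays. With 2 ratios an exact sign-flip test could not go below p = 0.5. The ratios also carried a dye effect: the difference between arrays with AngII in Cy5 and arrays with AngII in Cy3 had an SD over features of 0.33, so both orientations are given below.

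Markers of the labelled tissue were read with those of other cells, as bulk RNA would give. Of 12 ureteric epithelium markers 11 were tested, Ret being not well above background, and 6 were higher and 4 lower under AngII, led by Wnt7b at -1.13, Epcam at 0.73, Gata3 at 0.55 and Cdh16 at 0.55. Their median ratio was 0.10, and of all features 39.1% were called higher and 38.1% lower. The summed intensity of these 11 was 261045 to 288434 in the AngII channels and 281761 to 349718 in the media channels, the other way from the median. The sum is set largely by the keratin genes Krt18 (-0.03), Krt8 (-0.59) and Krt19 (-0.39), whose mean log2 intensities were 17.02, 16.63 and 14.80. In bulk samples fewer cells of a type and less RNA per cell cannot be told apart.

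Elf5, Gata2 and Ehf had the highest ratios of the 9, followed by Gata3, and all 4 were higher under AngII on every array. Emx2 and Elf3 had small positive ratios, Lhx1 had a ratio near 0, and Pax2 and Tfcp2l1 had small negative ratios whose size or sign went with the dye. By size, 3 of 9 members (33.3%) were at least 1.5-fold higher, against 5.5% of all features, and 1 (11.1%) at least 2-fold, against 1.16%. In limma 8 of 9 (88.9%) passed, against 77.3% of features: 6 were higher, against 39.1% of features, 2 were lower, against 38.1%, and Lhx1 did not pass. The median ratio of the 9 was 0.25, against 0.00 over all features, a value that the normalisation within arrays holds near 0. Leaving out either numbered replicate, with the dye effect in the residual, left 4 calls among the 9 (Elf5, Ehf, Gata2 and Gata3), against 19.6% of all features without replicate 1 and 14.8% without replicate 2, and those of Pax2, Emx2, Elf3 and Tfcp2l1 were lost. No test was run on the members as a set.

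**Figure D1:**
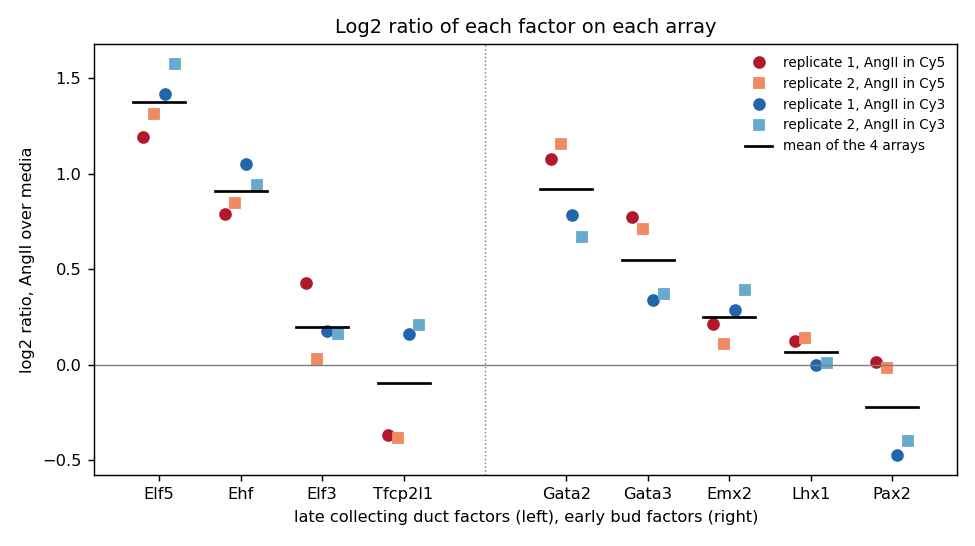
Each point is the log2 ratio of AngII over media (y axis) of 1 gene on 1 array, red and orange for AngII in Cy5, blue for AngII in Cy3, circles for replicate 1 and squares for replicate 2, and each black line is the mean of the 4 arrays. Elf5, Ehf, Gata2 and Gata3 lie above 0.3 on all 4 arrays, while the Tfcp2l1 points lie on both sides of 0 by dye.

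Among the early bud factors, Gata2 was the highest. Its ratios were 1.08 and 1.15 with AngII in Cy5 (replicates 1 and 2) and 0.79 and 0.67 with AngII in Cy3. Its normalised log2 intensities were 8.98, 9.08, 8.80 and 8.73 in the AngII channels, against 7.90, 7.92, 8.01 and 8.07 in the media channels. The AngII and media values did not overlap, and the lowest AngII value stood 0.67 above the highest media value of the same probe. The mean ratio was 0.92 ± 0.03 (limma SE), a 1.89-fold increase that ranked 231 from the top of 14995 features (adjusted p = 1.94e-19, and 0.00754 with the replicate block). A second probe of Gata2 gave 0.63, 0.59, 0.82 and 0.62, with a mean of 0.66, and there the dye difference ran the other way.

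Gata3, read by 1 probe, was also higher on every array. Its ratios were 0.77 and 0.71 with AngII in Cy5 and 0.34 and 0.37 with AngII in Cy3. The AngII channels read 11.87, 11.97, 11.62 and 11.57, against 11.09, 11.26, 11.28 and 11.21 in the media channels. These values did not overlap either. The mean was 0.55 ± 0.03 (limma SE), a 1.46-fold increase (adjusted p = 2.18e-14, and 0.0236 with the replicate block).

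Emx2 had 2 probes that gave small increases of like size. The brighter probe had 0.21 and 0.11 with AngII in Cy5 and 0.28 and 0.39 with AngII in Cy3, and the dimmer one 0.33, 0.27, 0.49 and 0.40. The channel values of the brighter probe overlapped, at 7.06 to 7.28 in AngII and 6.70 to 7.17 in media, although every array gave a positive ratio. Its mean was 0.25 ± 0.03 (limma SE; adjusted p = 1.86e-07), and the call was lost with the replicate block (adjusted p = 0.0674). With processed signals the ratio was 0.40.

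Lhx1 and Pax2 were each read by 1 probe printed at 10 spots per array, which shows the spot error directly. For Lhx1 the median spot ratio was 0.11 on both arrays with AngII in Cy5, and 0.00 and 0.05 with AngII in Cy3. The spots of a single array spread from -0.05 to 0.27 (replicate 1, AngII in Cy5), wider than the mean ratio of 0.07 ± 0.03 (limma SE; adjusted p = 0.0776). The AngII channels lay between 9.18 and 9.33 and the media channels between 9.08 and 9.20, overlapping. Lhx1 passed with median centring (adjusted p = 0.0199) and with AngII in Cy5 only (0.0274), at ratios of 0.11 and 0.13.

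Pax2 differed by dye more than by replicate. With AngII in Cy5 its median spot ratios were 0.01 and -0.01, and 7 and 5 of the 10 spots were above 0. With AngII in Cy3 they were -0.47 and -0.41, and all 10 spots were below 0 on each array. The mean over the arrays was -0.22 ± 0.03 (limma SE; adjusted p = 1.36e-06). That call was lost with the replicate block (adjusted p = 0.217). With AngII in Cy5 only the ratio was 0.00 (adjusted p = 0.967), and with processed signals it was -0.70. The channel values overlapped, at 6.29 to 6.67 in AngII and 6.59 to 6.79 in media. The Pax2 probe lay near the low end of the scale, at a mean log2 intensity of 6.59. Among features of like intensity (bin 2 of 10, from the dimmest) the median absolute ratio was 0.11 and 62.5% passed.

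**Figure D2:**
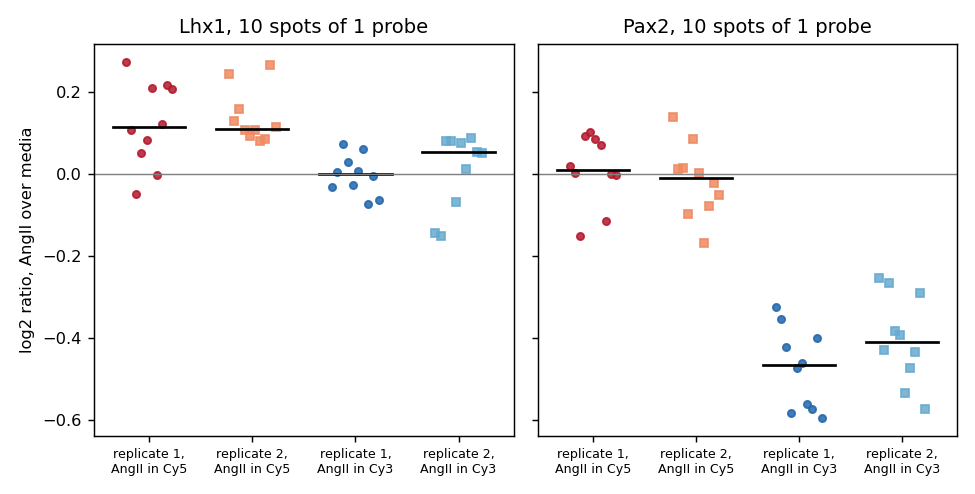
Each point is the log2 ratio of AngII over media (y axis) at 1 of 10 spots on 1 array (x axis), colours and symbols marking dye and replicate, and each black line is the median of the spots. All 20 Pax2 spots of the arrays with AngII in Cy3 lie below 0, whereas those with AngII in Cy5 scatter around 0.

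Among the late collecting duct factors, Elf5 stood highest, ranked 50 from the top of 14995 features. It was read by 1 probe at 1 spot per array. Its ratios were 1.19 and 1.31 with AngII in Cy5 and 1.42 and 1.58 with AngII in Cy3. The AngII channels read 8.48, 8.65, 8.06 and 8.55, against 7.28, 7.34, 6.65 and 6.98 in the media channels. All AngII values exceeded all media values. The mean was 1.37 ± 0.04 (limma SE), a 2.59-fold increase (adjusted p = 1.26e-22, and 0.00315 with the replicate block). With Agilent's processed signals the ratio was 2.16, more than 1.5 times as large on the log2 scale.

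Ehf was read by 3 probes, all higher under AngII but by unequal amounts. The brightest gave 0.79, 0.85, 1.05 and 0.94, in the order replicates 1 and 2 with AngII in Cy5 and replicates 1 and 2 with AngII in Cy3. Its AngII channels lay between 7.78 and 7.88, against 6.83 and 6.99 for the media channels, without overlap. The mean was 0.91 ± 0.03 (limma SE), a 1.88-fold increase (adjusted p = 2.71e-19, and 0.00428 with the replicate block). The other probes averaged 0.42 and 0.26, and their channel values did not overlap either. With the mean of the 3 probes the ratio of Ehf was 0.53 and with processed signals 1.58, so its size is less certain than its direction. Ehf and Elf5 are neighbours on chromosome 2 with 0 protein-coding genes between them in RefSeq (GRCm38.p6).

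Elf3, the third epithelium-specific ETS gene, read by 1 probe, had 0.43, 0.03, 0.18 and 0.16 in the same order of arrays. The first of these values, from replicate 1 with AngII in Cy5, stood well above the others, and the replicate means were 0.30 and 0.09. The mean was 0.20 ± 0.04 (limma SE; adjusted p = 5.33e-05), and the call was lost with the replicate block (adjusted p = 0.113). The AngII channels, at 6.98 to 7.22, just cleared the media channels, at 6.79 to 6.95. With processed signals the ratio was 0.44.

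Tfcp2l1 had 3 probes that did not agree in sign. The brightest had -0.37 and -0.38 with AngII in Cy5 but 0.16 and 0.20 with AngII in Cy3, averaging -0.10 ± 0.03 (limma SE; adjusted p = 0.0122). Its AngII channels read 6.95, 6.75, 7.35 and 7.42, against 7.32, 7.13, 7.19 and 7.21 in the media channels. Those values overlapped, and the AngII channel was the lower one on the arrays with AngII in Cy5. The second probe was positive on all 4 arrays, between 0.11 and 0.31, with a mean of 0.19. The third had a mean of -0.14, with -0.20 on 3 arrays and 0.04 on the other. With processed signals the brightest probe gave -0.30 (adjusted p = 0.00769). Its call was lost with the replicate block (adjusted p = 0.644). It was also lost when the probes were averaged (ratio -0.01, adjusted p = 0.696), and it turned positive with AngII in Cy3 only (0.18). The direction of Tfcp2l1 is therefore not settled by these arrays.

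**Figure D3:**
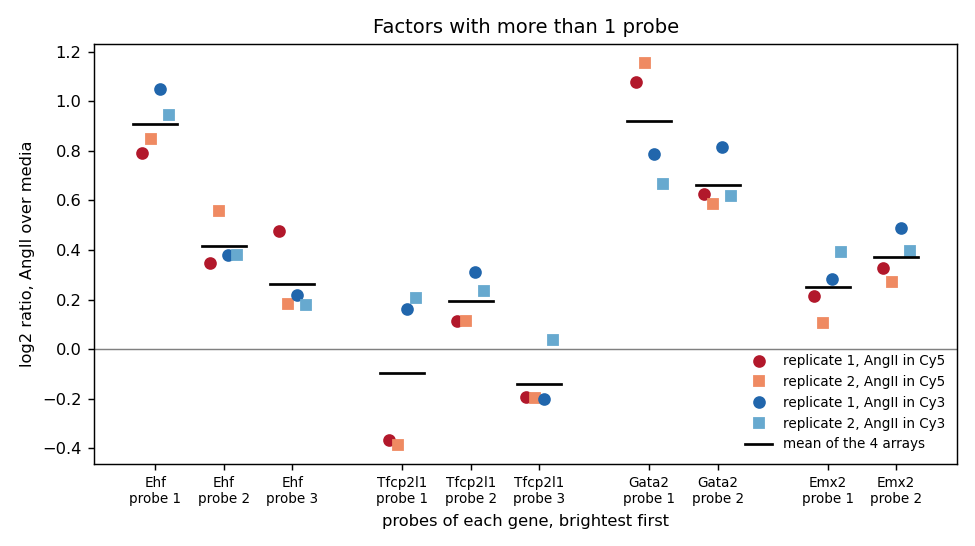
Log2 ratios of AngII over media (y axis) of the members with more than 1 probe, brightest probe first, each point 1 array (colours by dye, symbols by replicate) and each black line the mean of the 4 arrays. The probes of Ehf, Gata2 and Emx2 lie above 0 on every array, and those of Tfcp2l1 lie on both sides.

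The contrast of late with early factors did not separate the groups. The median ratio was 0.55 for the 4 late factors and 0.25 for the 5 early ones, a difference of 0.30. By array the difference was 0.40 and 0.30 with AngII in Cy5 and 0.33 and 0.21 with AngII in Cy3, so it had 1 sign throughout. The ranges overlapped, from -0.10 (Tfcp2l1) to 1.37 (Elf5) among late factors and from -0.22 (Pax2) to 0.92 (Gata2) among early ones. In limma 3 of 4 late and 3 of 5 early factors were higher, against 39.1% of all features. Of each group 1 was lower, against 38.1%. The difference was 0.053 when all probes of each gene were averaged, 0.61 with processed signals, and 0.75 when Gata2, which is also known in the adult duct, was counted as late. It was not tested, since the members are not replicates of a condition.

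Counted by channels that do not overlap, 5 of 9 members (55.6%) had every AngII value above every media value, against 18% of all features, namely Elf5, Ehf, Elf3, Gata2 and Gata3. Of the members 0 had every AngII value below every media value, against 15.1% of features (33.1% in either direction). Ratios of 1 sign on all 4 arrays were found for 6 of 9 members (66.7%), near the 59.1% of all features.

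**Figure D4:**
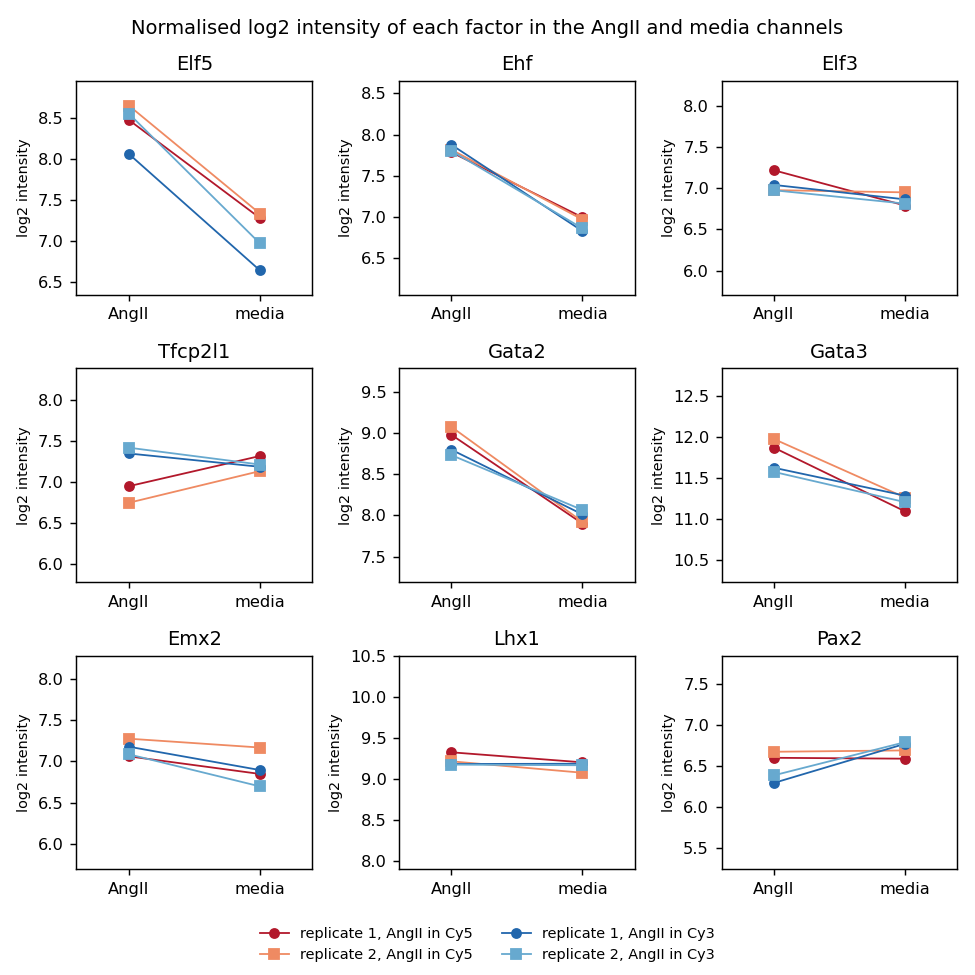
Normalised log2 intensity (y axis) in the AngII channel (left) and the media channel (right) of each array, joined by a line, for the brightest probe of each member, every panel spanning the same height. All lines fall steeply towards media for Elf5, Ehf and Gata2, those of Lhx1 are nearly level, and those of Tfcp2l1 cross.

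The authors' deposited table, which gives a value per spot, called 38.9% of its spots higher or lower. The authors' deposited table gave log2 ratios of 1.56 for Elf5, 1.02 for Gata2, 1.09 for the brightest Ehf probe and 0.53 for Gata3, all called higher. In the authors' deposited table all 10 Pax2 spots were called lower, from -0.38 to -0.16, 2 of the 10 Lhx1 spots were called higher, and of the 3 Tfcp2l1 probes 1 was called higher and 2 were not called.

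Other transcription factors of the bud gave a mixed picture. Counts of higher and lower genes in this and the following lists are limma calls, against 39.1% and 38.1% of all features. Of 12 further ureteric bud and nephric duct factors 11 were tested, of which 3 were higher, 6 lower and 2 neither, at a median ratio of -0.22. Etv4, an ETS factor downstream of GDNF and RET, had -0.95 (-1.28 to -0.66 over the arrays), Mycn had -0.55 (-0.86 to -0.23) and Sox9, a factor of the bud tips, had -0.53 (-0.59 to -0.47), while Hoxb7 rose by 0.38. Etv5, an ETS gene of the same list, had 0.05 (-0.06 to 0.15) and did not pass. Of 14 further collecting duct and epithelial factors only 7 were well enough above background to test, of which 2 were higher and 3 lower, with a median of -0.02. Ovol2 had -0.61 (-0.99 to -0.23) and Klf5 had -0.49 (-0.77 to -0.19), and Ovol1 rose by 0.48 (0.27 to 0.82) and Grhl2, a grainyhead factor of epithelial junctions, by 0.16. Foxi1, the factor that specifies intercalated cells, was too dim to pass the filter on background.

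Relatives of the members by family were tested too. Of 18 other ETS genes 13 were tested, of which 3 were higher and 7 lower, at a median ratio of -0.16. The lower genes were led by Fli1 at -0.63, Erf, a repressor of the family, at -0.51 and Ets1 at -0.30, and Elk3 rose by 0.47. Spdef, another ETS gene of epithelia, stood at 0.03 and was among the 3 that failed to pass. Of 20 other GATA, PAX, EMX, LIM and CP2 genes 7 were tested, of which 5 were higher and 1 lower, at a median ratio of 0.17. Pax8 and Grhl2 are each in 2 of these lists. Isl1 rose by 0.48, Gata6 by 0.24 (0.18 to 0.31), Tfcp2 by 0.19, though with -0.19 to 0.41 over the arrays, and Pax8 by 0.17 (0.00 to 0.25).

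Of 10 genes reported as acting downstream of the members 8 were tested, 4 higher and 3 lower, with a median of 0.18. The higher ones include Slc4a1 at 0.43, an anion exchanger of intercalated cells and red cells, which is also among the erythroid markers below that were higher under AngII. Wnt9b, the bud's inducer of nephrons, rose by 1.53 and the water channel gene Aqp3 by 0.88, while Wnt11 and the GDNF co-receptor gene Gfra1, both of the bud tip, had -0.50 and -0.48. Aqp2, the vasopressin-regulated water channel gene that Elf5 and Gata2 act on, had -0.09 (-0.29 to 0.19) and lay at a mean log2 intensity of 6.87. Avpr2, the gene of the vasopressin receptor, had 0.04 (-0.02 to 0.12) and did not pass. Ret and the proton pump gene Atp6v1b1 were too dim to pass the filter.

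Several members are also expressed in other cells of the kidney, and the markers of those cells moved unequally. Erythroid markers, given because Gata2 is expressed in blood progenitors, were higher in 8 of 9 tested and lower in 0, with a median of 1.91 and a summed intensity of 33154 to 40997 in the AngII channels, against 6634 to 7846 in the media channels. They were led by Hbb-bt at 2.78, Hbb-bh1 at 2.58, Hba-a1 at 2.29 and Hbb-y at 2.21, while the defining erythroid factors Gata1 and Klf1 were not well above background. Their part in the Gata2 result was not tested. Endothelial markers, for cells that also hold Gata2, were higher in 1 of 8 and lower in 6, with a median of -0.12. They included Sox18 at 0.49, Plvap at -0.49, Cdh5 at -0.14 and Esam at -0.14 (-0.34 to 0.05 over the arrays). Their sums were 1815 to 2071 in AngII and 1981 to 2256 in media.

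Leukocyte markers, for Gata3 in T cells and Gata2 in mast cells, were higher in 4 of 7 and lower in 3, with a median of 0.22. The 4 higher ones were Ptprc at 0.64, Cd74 at 0.57, Tyrobp at 0.33 and Cd52 at 0.22. The 3 lower ones were C1qa at -0.19, C1qb at -0.17 and Csf1r at -0.13. The sums of the 7 leukocyte markers were 764 to 810 in AngII and 653 to 706 in media. The T cell gene Cd3e and the mast cell gene Cpa3 were too dim to pass the filter, and Kit had no named probe here. Nephron progenitor and mesenchyme markers, beside Pax2 and Lhx1 which early nephrons also express, were higher in 3 of 8 and lower in 5, with a median of -0.32. They included Tmem100 at 0.77, Meox1 at -0.60, Osr1 at -0.58 and Eya1 at -0.37. Six2 had -0.37 (-0.83 to 0.04 over the arrays) and Cited1 had 0.24 (0.05 to 0.44). The sums of the nephron progenitor markers overlapped, at 6174 to 7154 in AngII and 6306 to 7147 in media. Stromal markers were higher in 5 of 10 and lower in 2, with a median of 0.09. The higher ones included Acta2 at 1.69, Cspg4 at 1.07, Col1a1 at 0.40 and Pdgfrb at 0.23 (-0.11 to 0.60 over the arrays). The 2 lower ones were Foxd1 at -0.16 (-0.47 to 0.14) and Col1a2 at -0.09 (-0.63 to 0.48). Dcn at 0.06, Lum at 0.06 and Pdgfra at 0.01 did not pass. The sums of the stromal markers were 44371 to 49359 in AngII and 34682 to 40687 in media. The part of these cells in the results was not tested.

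The genes whose ratios over the 4 arrays lay nearest to those of Elf5, of 11283 named genes compared, were Tspan8, Abcc4 and Kcnj16, at root mean square differences of 0.03, 0.06 and 0.09 on the log2 scale. For Pax2 they were Chkb, Foxp1 and Cblc at 0.03, 0.03 and 0.04, but 238 genes lay within 0.1 of Pax2 and 3 within 0.1 of Elf5, so likeness over 4 arrays singles out little for Pax2.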

How the data were processed

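Per the file headers, the deposited scanner files were made with Feature Extraction 10.5.1.1; the submitters' processing notes name limma and give no version of it. The spot and local background intensity values used here are medians over pixels as deposited, with no correction, and the processed intensity is Feature Extraction's own, after background subtraction and dye normalisation, per the file headers. The deposited scanner files also hold a log10 ratio of red over green and flags with a score of 0 or 1. The authors' deposited table holds a log2 ratio, a log2 average intensity, a p-value after adjustment and a call with a score of -1, 0 or 1. How that table was fitted is not given in the sources used here, and its log2 ratios correlated with those computed here at Pearson r = 0.995 across features.

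For the ratios, limma 3.58.1 in R 4.3.3 was run with normexp background correction (offset 50) and loess within arrays, control spots having weight 0. Spots with an outlier mark (0 among the members) were dropped, spots of a probe were averaged and arrays with AngII in Cy3 were turned. The 2 arrays of a number were averaged and the 2 ratios fitted with lmFit and eBayes. A probe was tested if at least a 0.5 share of its spots was well above background on each of the 4 arrays, in the channel of AngII or in that of media, as 19393 of 41174 were. In a single channel 19028 to 21922 probes were so. The brightest probe stood for a gene. Channel intensities were scaled between arrays by Aquantile. They include the normexp offset for each probe, which narrows channel differences in the summed intensities of marker lists, most for dim lists. RefSeq (GRCm38.p6) gave names to 25097 probes by accession, without versions; the array annotation is on mm9. Precision is limited by the 4 arrays.

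The members and lists were chosen with earlier results of these data known. The named genes are all 9 members, up to 4 genes of smallest p in each of 11 lists (5 of related genes, 6 of cell type markers), and the 3 genes nearest to the highest and the lowest member. Etv5, Spdef, Foxi1, Aqp2, Avpr2, Slc4a1, Krt8, Krt18, Krt19 and genes given as not tested are outside this rule and were picked with their values in view. The same holds for Six2, Cited1, C1qa, C1qb, Csf1r, Foxd1, Col1a2, Dcn, Lum and Pdgfra among the cell type markers. Each array pairs the RNAs of 1 number. The replicate differences of the AngII and media channels, read from the same spots, correlated at 0.834. The fit was tested on simulated data. Protein sequences were not analysed here.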

Additional observations from a re-analysis of the deposited data

Results flagged for a closer look

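The 4 arrays of each of the 15 member probes were searched for a value far from the other 3, which chance gives in about 5% of such sets. Such a value was found for 3 probes. The share given is the gap to the nearest value over the whole range, which for each of them was above Dixon's critical value. The second Ehf probe had 0.56 on replicate 2 with AngII in Cy5, against 0.35 to 0.38 on the others (a share of 0.845). The third Ehf probe had 0.48 on replicate 1 with AngII in Cy5, against 0.18 to 0.22 on the others (0.874). The third Tfcp2l1 probe had 0.04 on replicate 2 with AngII in Cy3, against -0.20 on each of the others (0.980).

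The brightest Tfcp2l1 probe had negative ratios on both arrays with AngII in Cy5 and positive ratios on both with AngII in Cy3, a difference of -0.56, which was not tested.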

How the results depend on the processing

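Elf5, Ehf, Gata2 and Gata3 kept their direction and passed in all 13 alternatives run and were called higher in the authors' deposited table, with ratios of 1.25 to 2.16, 0.53 to 1.58, 0.73 to 1.17 and 0.35 to 0.74. Over all 9 members and these 13 alternatives, a call was lost in 17 cases (Pax2, Emx2, Elf3 and Tfcp2l1), gained in 2 (both Lhx1) and turned in sign in 1, the brightest Tfcp2l1 probe at 0.18 with AngII in Cy3 only. In the authors' deposited table the brightest Tfcp2l1 probe was not called, at -0.14. With the replicate block, which leaves the dye effect in the residual, 4641 features and 4 members passed. With the 4 arrays as hybridisations of 1 pair and no dye term, chosen after seeing the data, 6568 features and 5 members did. Leaving out a replicate, which left the 2 arrays of the other, gave 2212 to 2942 features, 4 members each time (Elf5, Ehf, Gata2 and Gata3), and a late minus early difference of 0.25 to 0.36. Without background correction that difference was 0.40, from processed signals 0.61, after averaging the probes of each gene 0.053, and with Gata2 counted as late 0.75. The cause was not tested. A dye term on the 4 arrays, also added later, gave 11392 features and 8 members. All 15 member probes were well above background in both channels of the 4 arrays, and neither filter on dim probes moved a member's ratio.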
